A study of Mus musculus with 12 samples.

Results

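The 8 genes described here are drivers of colorectal cancer that are known to be mutated after, or in place of, Apc: Nras, Braf, Pik3ca, Trp53, Smad2, Smad4, Tgfbr2 and Fbxw7. They were chosen by name from the 38924 Ensembl genes of the count tables, and all 8 passed the filter on low counts. The samples were pieces of proximal colon of 6 APC Min/+ and 6 WT mice, all female, C57BL/6 and 6 weeks old, with 1 RNA library per mouse. APC Min/+ mice carry a germ-line truncating allele of Apc in every cell, with the normal allele on the other chromosome, and the mice of this age had no visible tumors. WT mice were congenic and carried no mutant allele. The genotypes were housed in separate cages, so cage and genotype cannot be told apart. The comparison asks whether the genes that are hit later in the adenoma-carcinoma sequence already differed in transcript abundance before neoplasia.

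The drivers belong to 5 routes of growth control. Nras is a small GTPase that relays growth factor signals to the kinase Braf and the MAPK cascade. Pik3ca is a catalytic subunit of PI3 kinase. Tgfbr2 is the receptor that binds TGF-beta, Smad2 is the receptor-regulated Smad that the receptor complex phosphorylates, and Smad4 is the shared partner that enters the nucleus with it. In the colon this route restrains epithelial growth. Trp53 encodes the p53 transcription factor, and Fbxw7 is the substrate-recognition subunit of an SCF ubiquitin ligase that marks Myc, cyclin E and other growth promoters for destruction. Cancer mutations activate Nras, Braf and Pik3ca and inactivate the other genes, so the lesion is usually in the sequence of the gene and need not be visible in the amount of its transcript.

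Library totals ran from 50313805 to 197914821 counts. Apc itself had 192 ± 16.97 CPM (CPM are counts scaled to the TMM-adjusted library total; SD, n = 6) in the APC Min/+ group and 186 ± 30.7 CPM (SD, n = 6) in the WT group, and counts per gene cannot tell its mutant and normal alleles apart. Of 12 epithelial marker genes, 12 were detected. In APC Min/+ mice M10_2 and M13_1 these markers summed to 12264 and 12833 CPM, against 28086 to 51254 CPM in the other mice, and the 4 posterior Hox genes (Hoxa13, Hoxb13, Hoxd12 and Hoxd13, known for their activity in the distal hindgut) summed to 468 and 554 CPM, against at most 2.93 CPM elsewhere. WT mouse M17_1 had the highest share of counts on mitochondrially encoded genes, 12.7%, against 4.35% to 8.46% in the other mice. In that mouse the genes of the longest length tercile lay 0.36 below those of the shortest on the median log2 scale, where the other mice ran from -0.24 to 0.12. The difference between genotypes of each driver is given with all 12 mice and, for most drivers, also without some or all of these 3. Smooth muscle markers, 10 genes, summed to 5555 to 8171 CPM in APC Min/+ and to 5702 to 7303 CPM in WT mice. The samples are bulk tissue, in which fewer cells of a type and less RNA per cell cannot be told apart.

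Among the drivers with a RefSeq promoter at hand, Tgfbr2 varied most over the 12 mice and Braf least, and the sequences ahead of these 2 genes are shown for that contrast. The wide range of Tgfbr2 rested on M17_1, and without that mouse its range, 1.53-fold, was below those of Trp53 (1.56-fold) and Pik3ca (1.54-fold). The 250 bases before each RefSeq start site (GRCm38.p6) are given 5′ to 3′ on the strand of the gene, at chr9:116175364-116175613 for Tgfbr2 and at chr6:39725464-39725713 for Braf, both on the minus strand. Capitals mark CCAAT boxes (CCAAT or ATTGG), GC boxes (GGGCGG or CCGCCC) and cAMP response elements (TGACGTCA), searched on both strands.
Tgfbr2: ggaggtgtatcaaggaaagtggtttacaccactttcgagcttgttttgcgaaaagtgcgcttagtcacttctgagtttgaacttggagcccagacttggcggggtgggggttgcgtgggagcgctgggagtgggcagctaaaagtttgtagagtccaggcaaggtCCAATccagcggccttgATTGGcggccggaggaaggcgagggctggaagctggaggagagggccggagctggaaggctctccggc
Braf: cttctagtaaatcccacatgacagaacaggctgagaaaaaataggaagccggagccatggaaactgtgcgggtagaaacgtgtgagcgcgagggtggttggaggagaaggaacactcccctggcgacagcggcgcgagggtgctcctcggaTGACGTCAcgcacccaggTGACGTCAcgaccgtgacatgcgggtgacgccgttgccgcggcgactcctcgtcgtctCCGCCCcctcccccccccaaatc
Tgfbr2 held 2 CCAAT boxes and neither of the other motifs, and Braf held 2 cAMP response elements, 1 GC box and no CCAAT box. Of 32851 RefSeq windows of 300 bases (250 before and 50 after a start), 37.4% held a CCAAT box, 35.7% a GC box and 1.79% a cAMP response element. Windows were at hand for 6 of the 8 drivers, Smad2 and Smad4 being named only. The GC content of the window was 59.0% for Tgfbr2 and 65.0% for Braf, against a median of 52.7% over all windows. Fbxw7 has 3 annotated starts, the first with a GC content of 69.0% and 3 GC boxes and the second with 29.7% and none. A TATA box (TATAAA or TTTATA), which 13.6% of windows held, was found in the Trp53 window and in that of the second Fbxw7 start. The Smad box (GTCT or AGAC) was present in each of the 8 windows of these 6 genes, but 87.98% of all windows held it.

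Per transcript length, the drivers covered a range from Smad4 at 24.5 ± 9.28 RPKM to Fbxw7 at 2.65 ± 0.350 RPKM (RPKM are CPM divided by the kilobases of the gene model; mean and SD over 12 mice). Between them lay Tgfbr2 at 22.04 ± 5.18 RPKM, Nras at 14.8 ± 1.56, Smad2 at 11.5 ± 1.94, Trp53 at 9.50 ± 1.38, Pik3ca at 9.38 ± 1.06 and Braf at 4.10 ± 0.418 RPKM. The top level was that of the shared TGF-beta partner and the next that of its receptor. Smad4 was above Tgfbr2 in 5 of 12 mice and Trp53 above Pik3ca in 6 of 12, so neither pair of neighbors differed beyond the spread between mice. The order was clear at the bottom, where Pik3ca exceeded Braf and Braf exceeded Fbxw7 in 12 of 12 mice. Tgfbr2 exceeded Nras, and Nras exceeded Smad2, in 11 of 12 mice, and Smad2 exceeded Trp53 in 9 of 12. The place of a gene depended on the length used. The tables gave Smad2 a length of 3549 bp and Tgfbr2 4785 bp, against 8781 and 8187 bp of exons in GENCODE M21, and with the longest M21 transcript as the length Smad2 moved from place 4 to place 7. Reads were not recounted on the M21 exons, so this move follows from the length alone and does not measure another level. Among the 20311 genes tested, the level of Smad4 was at percentile 88.0 and that of Fbxw7 at percentile 47.3.

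**Figure D1:**
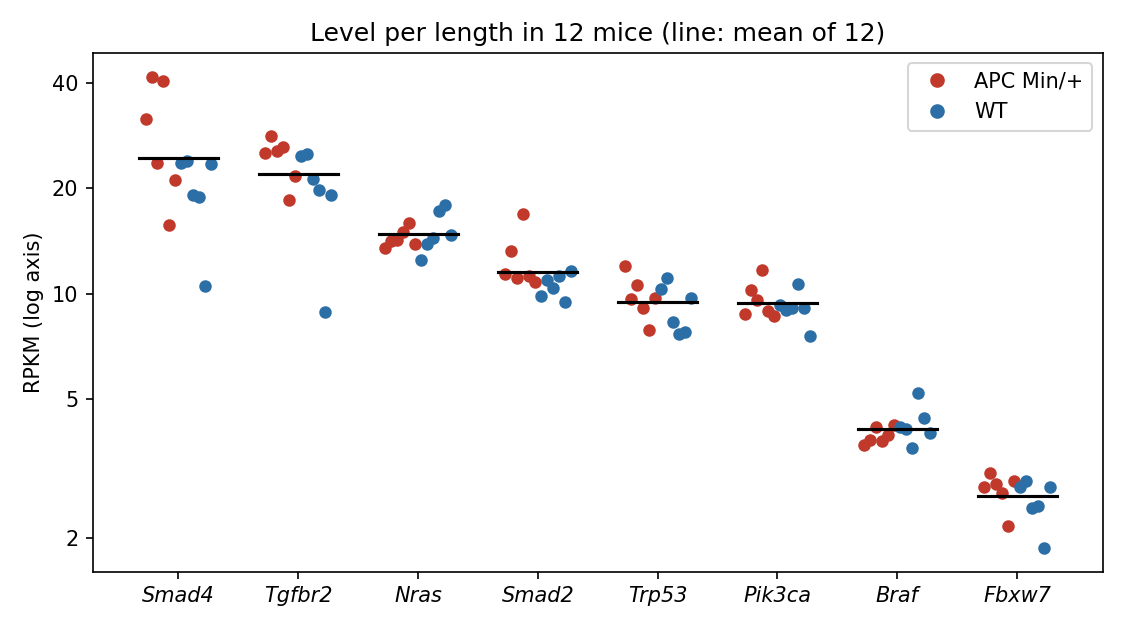
RPKM on a log axis for each of the 8 drivers in the 12 mice (red, APC Min/+; blue, WT; black line, mean of 12). Smad4 spans 10.5 to 41.7 RPKM and Tgfbr2 8.90 to 28.2, while Braf stays between 3.63 and 5.20.

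The spread between mice was unequal. Within a genotype, the SD of log2 CPM was 0.51 for Smad4 and 0.42 for Tgfbr2, at percentiles 70.7 and 60.3 among the genes tested. For the other 6 drivers it lay between 0.13 (Braf) and 0.21 (Trp53), at percentiles 5.85 to 22.5. The percentiles were taken over tested genes of all levels, low counts included, and genes of like abundance were not compared separately. The highest mouse was 3.96-fold above the lowest for Smad4 and 3.17-fold for Tgfbr2, and between 1.43-fold (Braf) and 1.78-fold (Smad2) for the others. Without M17_1 the range was 2.66-fold for Smad4 and 1.53-fold for Tgfbr2, the latter then inside the range of the others, and the SD within a genotype was 0.43 and 0.21. Without M10_2, M13_1 and M17_1 it was 2.01-fold for Smad4, and that of Smad2 went from 1.78-fold to 1.18-fold. Depth was not the limit for these values: a driver had between 1056 and 30677 counts in a mouse, and the counting error of a typical mouse, 1.01% to 2.33%, was well below the biological coefficient of variation of 14.6% to 31.8%.

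No driver differed between genotypes at the study's threshold. In edgeR's quasi-likelihood test, 0 of the 8 drivers and 0 of the 20311 genes tested reached a Benjamini-Hochberg FDR under 0.05 with a fold change of at least 2 (0% of all genes called). The study, which does not name the edgeR test it used, did call genes in both directions at this threshold. None of the 8 drivers was among them. At an unadjusted p under 0.05 there were 0 drivers, against 5.27% of all genes (1071 genes: 3.46% higher and 1.81% lower in APC Min/+ mice). With the other tools 0 drivers were called as well, while DESeq2 called 27 genes, edgeR's exact test 10, its likelihood ratio test 15 and limma-voom 0. Smad4 was the 1 driver with an unadjusted p under 0.05 in DESeq2, the exact test and the likelihood ratio test, and limma-voom gave 0. Differences are given below as the log2 ratio, which is edgeR's log2 fold change of APC Min/+ over WT. Its median over the 8 drivers was 0.11, and that of all genes tested was -0.01. The FDR of the 8 drivers lay between 0.908 and 0.918. For 7 of them the 95% interval of the fold change lay within 0.807 to 1.67, and for Smad4 it reached from 0.995 to 2.13. Each interval gives the genotype differences that the fit leaves possible, given the spread between the 12 mice. A p above the threshold does not show that the levels were alike.

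**Figure D2:**
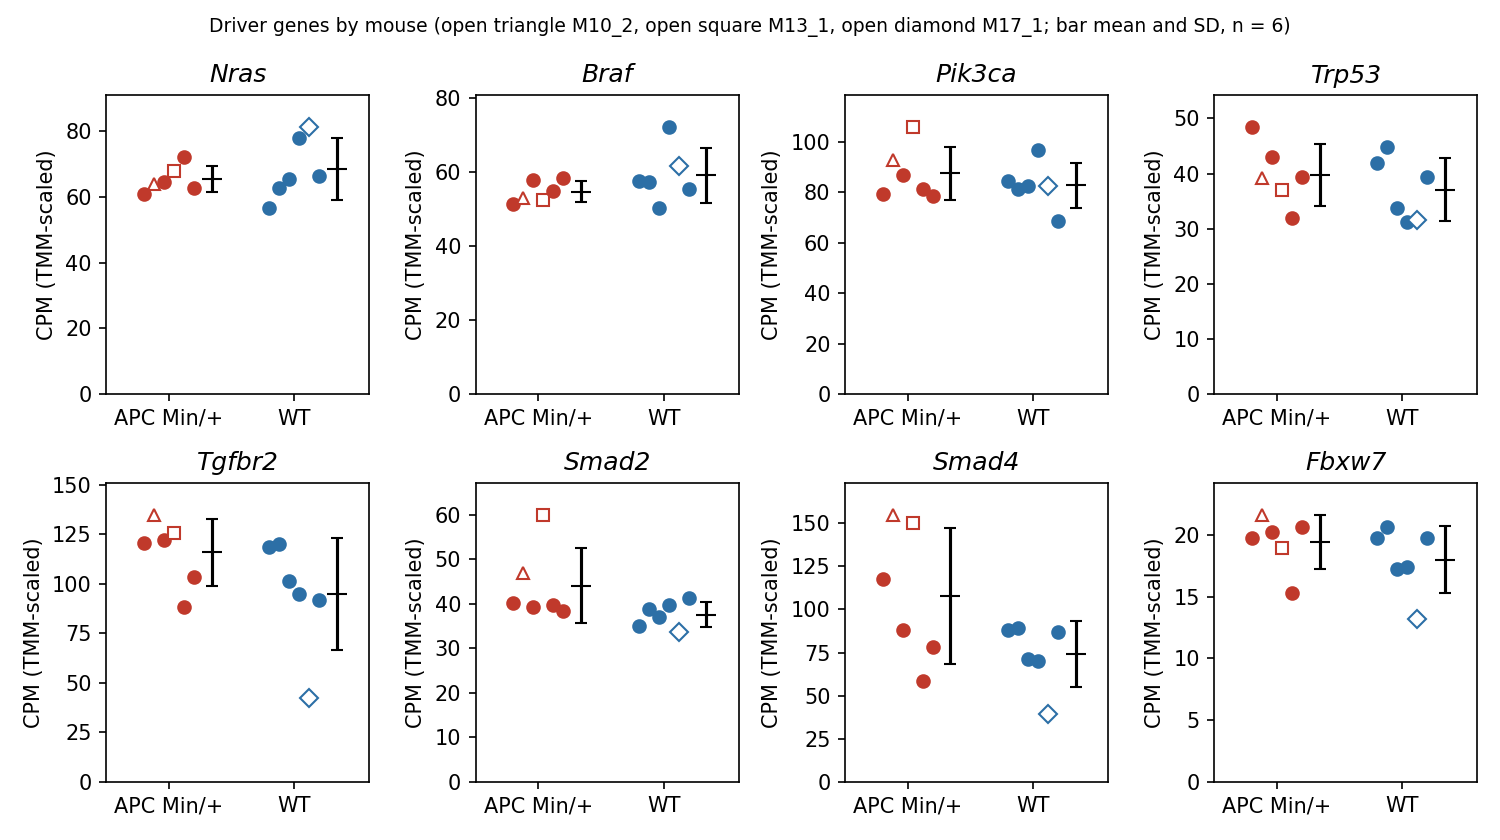
TMM-scaled CPM of each driver by mouse (red, APC Min/+; blue, WT; black bar, mean and SD, n = 6; open triangle M10_2, open square M13_1, open diamond M17_1), each axis from 0. The groups overlap for all 8 genes; M10_2 and M13_1 top Smad4 at 155 and 150 CPM and M17_1 is lowest for Smad4 and Tgfbr2 at 39.2 and 42.6 CPM.

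Among the TGF-beta genes, Smad4 showed the largest difference of the 8 drivers. In APC Min/+ mice Smad4 was counted at 58.3, 78.3, 88.0, 117, 150 and 155 CPM, and in WT mice at 39.2, 70.3, 71.1, 86.9, 87.9 and 89.0 CPM. The 3 highest mice were APC Min/+, but the groups overlapped, since APC Min/+ mice M2_A, M20_1 and M18_2b lay among the WT values. The group means were 108 ± 39.5 CPM and 74.05 ± 19.08 CPM (SD, n = 6 each). The log2 ratio was 0.54 with a standard error of 0.25 (FDR = 0.908 from edgeR, exact permutation p = 0.119 over the 924 splits of the mice), and 4 of 6 APC Min/+ mice were above the WT median. The mice at either end were those that stood apart: M10_2 and M13_1, with the low epithelial sums and high posterior Hox levels, were highest, and M17_1, with the high mitochondrial share, was lowest. The epithelial sum of M17_1 was 36388 CPM. By the mean of centered log2 epithelial markers, however, M17_1 was also low (-0.43), beside M10_2 (-0.47) and M13_1 (-0.57). Without M10_2 and M13_1 the log2 ratio of Smad4 was 0.21, and without those 2 mice and M17_1 it was 0.08 (edgeR FDR = 0.9999 in both). These were the 2 highest APC Min/+ mice and the lowest WT mouse for Smad4, so a smaller ratio follows from leaving them out. The set of 3 mice was chosen after seeing the data. APC Min/+ mouse M2_A, the lowest of its group, was kept in both sets, though its mitochondrial share, 8.46%, came next after that of M17_1. Without M2_A, by contrast, the log2 ratio was 0.68 (edgeR FDR = 0.541). The part of tissue composition and RNA quality in this difference was not tested further.

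Tgfbr2, the receptor, was counted at 88.5, 104, 121, 122, 126 and 135 CPM in APC Min/+ mice and at 42.6, 91.7, 95.01, 102, 118 and 120 CPM in WT mice. Apart from M17_1, at less than the level of any other mouse, the WT values fell inside the APC Min/+ range. The log2 ratio was 0.29 (standard error 0.21, edgeR FDR = 0.908, exact permutation p = 0.147), and 5 of 6 APC Min/+ mice exceeded the WT median. It was 0.14 without M17_1, 0.20 without M10_2 and M13_1, and 0.05 without all 3. In M17_1 the 8 fibroblast and endothelial markers also had their lowest sum, 1027 CPM, against 1443 to 2829 CPM in the other mice, and its part in the Tgfbr2 level was not tested.

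Smad2, the receptor's substrate, was the most even of the 3 TGF-beta genes. It was counted at 38.3, 39.3, 39.8, 40.3, 46.9 and 60.04 CPM in APC Min/+ mice and at 33.7, 35.0, 37.0, 38.9, 39.8 and 41.3 CPM in WT mice. Each of the 6 APC Min/+ mice was above the WT median, yet only M10_2 and M13_1 were above the highest WT mouse. The log2 ratio was 0.23 (standard error 0.12, edgeR FDR = 0.908, exact permutation p = 0.0671) and was 0.07 without M10_2 and M13_1. The ratio of Smad4 to Smad2 RPKM ran from 1.40 to 3.16 in APC Min/+ and from 1.11 to 2.40 in WT mice, again overlapping.

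The MAPK genes had a small spread and fitted log2 ratios below 0. Nras was counted at 60.9 to 72.0 CPM (median 64.3) in APC Min/+ and at 56.5 to 81.2 CPM (median 65.8) in WT mice. This gave a log2 ratio of -0.07 (standard error 0.10, exact permutation p = 0.535). Its highest value was in M17_1, the mouse that was lowest for 4 other drivers, and without that mouse the log2 ratio was -0.0089. Braf was counted at 51.4 to 58.4 CPM (median 53.8) in APC Min/+ and at 50.3 to 72.0 CPM (median 57.4) in WT mice. The log2 ratio was -0.11 (standard error 0.09, exact permutation p = 0.208). WT mouse M18_2a alone, at 72.0 CPM, lay well above the rest. Of the Braf exons, 146 bp (1.05%) overlap Ndufb2 on the opposite strand, and whether counting used the strand is not given in the sources used here.

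Pik3ca was counted at 78.6 to 106 CPM (median 84.0) in APC Min/+ and at 68.8 to 96.8 CPM (median 82.5) in WT mice. The log2 ratio of 0.08 (standard error 0.10, exact permutation p = 0.429) was below its standard error, and without M10_2 and M13_1 it was -0.02. M13_1 was the highest mouse, at 106 CPM.

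Trp53 and Fbxw7, the remaining 2 tumor suppressors, also overlapped between genotypes. Trp53 was counted at 31.9 to 48.4 CPM (median 39.3) in APC Min/+ and at 31.1 to 44.8 CPM (median 36.6) in WT mice. This gave a log2 ratio of 0.10 (standard error 0.12, exact permutation p = 0.403). Wrap53, its antisense neighbor, starts 103 bp away and shares no annotated exon with it. Fbxw7 was counted at 15.3 to 21.6 CPM (median 19.96) in APC Min/+ and at 13.2 to 20.6 CPM (median 18.6) in WT mice. The log2 ratio was 0.11 (standard error 0.12, exact permutation p = 0.379). M2_A and M17_1 were its lowest mice in the respective genotypes, 15.3 and 13.2 CPM, with 5 of 6 APC Min/+ mice above the WT median. Without M17_1 the log2 ratio of Fbxw7 was 0.03, and without M2_A it was 0.18.

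**Figure D3:**
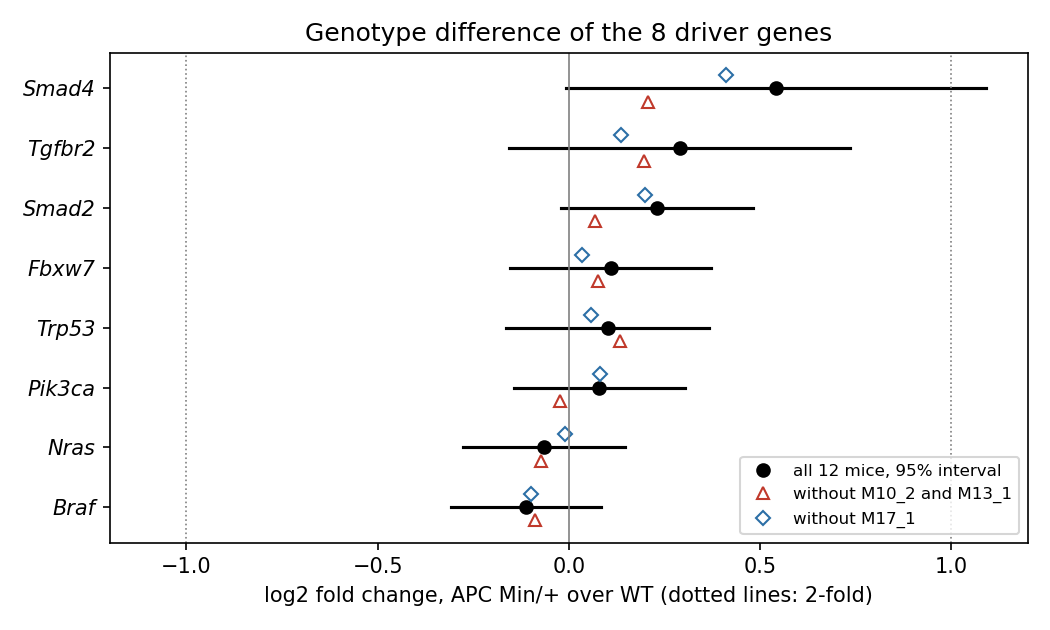
Log2 ratio (log2 fold change) of each driver, APC Min/+ over WT (black point and line, 12 mice with 95% interval; red triangle, without M10_2 and M13_1; blue diamond, without M17_1). All 8 intervals include 0; Smad4 goes from 0.54 to 0.21 without M10_2 and M13_1 and to 0.41 without M17_1.

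Several drivers were high or low in the same mice, whatever the genotype. The mouse M17_1 was lowest for Smad2, Smad4, Tgfbr2 and Fbxw7 and highest for Nras, and M10_2 was highest for Smad4, Tgfbr2 and Fbxw7. Of the 28 pairs of drivers, 9 had a Pearson correlation with an adjusted p under 0.05 over the 12 mice (permutation test, Benjamini-Hochberg over 28). By Spearman correlation, 2 passed. The share of passing pairs among all genes was not computed, so these counts do not set the drivers apart from other genes. Smad4 and Tgfbr2 passed by both measures (r = 0.85, permutation p = 1e-05, the smallest that 100000 permutations can give, adjusted 0.00028; rho = 0.94, permutation p = 3e-05, adjusted 0.00084). Nras and Trp53 passed by both with the opposite sign (r = -0.82, permutation p = 0.00091, adjusted 0.0064; rho = -0.82, permutation p = 0.0021, adjusted 0.029). Tgfbr2 and Fbxw7 passed by Pearson's r (r = 0.88, permutation p = 0.00074, adjusted 0.0064) and not by rank (rho = 0.71, permutation p = 0.0126, adjusted 0.079).

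When the 2 mice farthest from the median of the first gene were left out, 0 of 28 pairs passed, although r stayed at 0.77 for Smad4 and Tgfbr2 and at -0.70 for Nras and Trp53, and was 0.57 for Tgfbr2 and Fbxw7. Over the 9 mice other than M10_2, M13_1 and M17_1, r was 0.75 for Smad4 and Tgfbr2 (permutation, adjusted p = 0.069), -0.79 for Nras and Trp53 (permutation, adjusted p = 0.065) and 0.69 for Tgfbr2 and Fbxw7 (permutation, adjusted p = 0.15). Within APC Min/+ and within WT mice, r was 0.91 and 0.95 for the first of these pairs, -0.91 and -0.83 for the second and 0.79 and 0.93 for the third. Over the same 9 mice 1 pair passed, Trp53 with Smad4 (r = 0.92, permutation p = 0.00026, adjusted 0.0073). Smad2 and Smad4 had r = 0.76 over 12 mice and 0.08 over those 9. The 4 mice with the highest lymphocyte marker sums, M17_1, M2_A, M16_1 and M18_2a (1820, 1781, 1339 and 652 CPM, against 164 to 605 CPM in the other 8), were also the 4 lowest for Trp53 and for Smad4, and they had the 4 highest mitochondrial shares, 7.84% to 12.7%. This match holds for summed CPM, in which abundant genes weigh most, and not for the mean of centered log2 lymphocyte markers, by which M13_1 was among the top 4 (0.66) and M18_2a was not (-0.14). Their part in these relations was not tested.

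**Figure D4:**
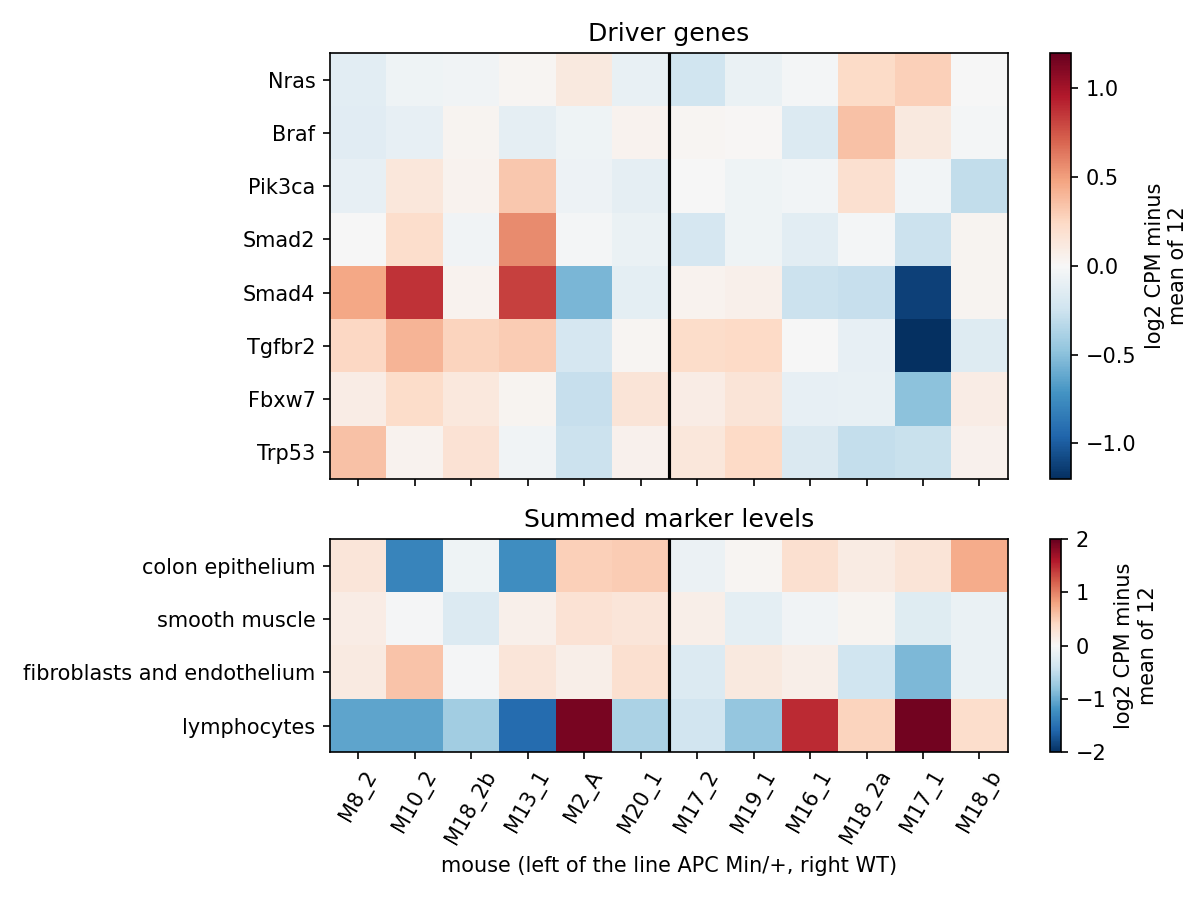
Log2 CPM of the drivers (upper panel) and log2 of summed marker CPM (lower panel), each minus its mean over 12 mice, with mice in columns (left of the line APC Min/+, right WT); the 2 color scales differ, and the darkest shades stand for that value or beyond. M17_1 is low for Smad4, Tgfbr2 and Fbxw7 and high for Nras; M10_2 and M13_1 are high for Smad4 and low for epithelial markers.

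Relations to smooth muscle and epithelial markers were computed for each driver, 16 in all, on the mean of centered log2 marker levels. Over the 12 mice 0 of 16 passed the adjustment. The strongest was Pik3ca with epithelium (r = -0.74, permutation p = 0.0049, adjusted 0.0781; rho = -0.78, permutation p = 0.0045, adjusted 0.0728). M10_2 and M13_1 were the 2 mice farthest from the epithelial median, and without them the Pik3ca relation was r = -0.48 (permutation, adjusted p = 0.359), while without M17_1 as well it was r = -0.80 (permutation p = 0.0076, adjusted 0.122). In those 10 mice Smad4, Fbxw7 and Smad2 passed instead, with r = 0.85, 0.80 and 0.80 (permutation, adjusted p = 0.0381 for each). M17_1 had the lowest epithelial marker score of the 10, and with it left out as well 0 of 16 passed, with r = 0.58, 0.48 and 0.56 for the same 3 genes. The relation of Tgfbr2 to smooth muscle (r = 0.59, permutation p = 0.044, adjusted 0.351; rho = 0.16, permutation p = 0.618, adjusted 0.899) was r = 0.07 without M17_1 and M20_1.

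The pathways around the drivers were read from 11 lists, holding 160 genes of which 159 were tested. None was called by edgeR's quasi-likelihood test or by the 4 other tools, and 12 had an unadjusted p under 0.05, all with a higher mean in APC Min/+ mice. These were 7.55% of the 159, beside 5.27% of all genes (3.46% in the higher direction). Without M10_2 and M13_1 the count was 1 of 159, Dusp6, beside 1.59% of all genes (0.531% in the higher direction). No pathway gene named below passed the adjusted threshold here, although the study listed Ccn2, as Ctgf, among the genes it called higher.

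For Nras and Braf, 0 of 19 cascade genes and 3 of 11 output genes had an unadjusted p under 0.05. For these paralogs of the drivers the log2 ratio was 0.09 for Hras and -0.10 for Araf. Etv4, an ETS factor transcribed in response to MAPK signaling, was counted at 1.90 to 13.4 CPM (median 3.12) in APC Min/+ and at 0.774 to 3.65 CPM (median 1.56) in WT mice. Its 2 highest values, 12.9 and 13.4 CPM, were in M10_2 and M13_1, and its log2 ratio was 1.75 with all mice and 0.49 without those 2. Dusp6, a phosphatase that feeds back on ERK, was counted at 34.9 to 46.6 CPM (median 44.6) against 34.5 to 41.6 CPM (median 36.8), with a log2 ratio of 0.22 (edgeR FDR = 0.908) that was 0.27 without them. Spry2, a feedback inhibitor of receptor tyrosine kinases, had a log2 ratio of 0.40 and 0.18 without them.

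For Pik3ca, 1 of 22 pathway genes had an unadjusted p under 0.05. This was Irs1, the insulin receptor adaptor, counted at 6.83 to 30.4 CPM (median 9.19) in APC Min/+ and at 6.71 to 9.59 CPM (median 7.55) in WT mice. M10_2 and M13_1 held 28.4 and 30.4 CPM, and the log2 ratio of 0.99 was 0.10 without them. Pik3r1, a regulatory subunit, and Pik3cb, another catalytic subunit, had log2 ratios of 0.09 and 0.0059.

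For Trp53, 0 of 10 tested regulators and 1 of 22 targets had an unadjusted p under 0.05. The regulator Cdkn2a had too few counts to be tested. Btg2, an antiproliferative p53 target, was counted at 109 to 139 CPM (median 124) in APC Min/+ and at 73.0 to 114 CPM (median 105) in the WT group, and its log2 ratio of 0.32 was 0.26 without M10_2 and M13_1 and 0.18 without those and M17_1. Mdm2, the ubiquitin ligase that restrains p53, and Cdkn1a, which encodes the cell cycle inhibitor p21, had log2 ratios of -0.05 and 0.17. The median of the 22 targets was -0.03.

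For Tgfbr2, Smad2 and Smad4, the lists covered ligands and receptors, Smads and their regulators, and target genes, with 2 of 13, 0 of 14 and 2 of 10 genes at an unadjusted p under 0.05. All 10 targets had a log2 ratio above 0, with a median of 0.64, and the median was 0.29 without M10_2 and M13_1 and 0.22 without those and M17_1. The summed fibroblast and endothelial markers were also higher in APC Min/+ mice, with overlapping groups. Their median was 2217 CPM (range 1878 to 2829) in APC Min/+ and 1657 CPM (range 1027 to 2191) in WT mice. Col1a1 and Col1a2 are in both this marker list and the target list, so the marker sum is not separate from the targets. The part of these cell types in the target levels was not tested. Ccn2, a matricellular protein gene, was counted at 12.9 to 68.4 CPM (median 17.11) in APC Min/+ and at 8.90 to 15.6 CPM (median 9.56) in WT mice. M10_2 and M13_1 held 45.3 and 68.4 CPM, and its log2 ratio was 1.37 with all mice and 0.42 without them. Its relative Ccn1 had 0.85 and 0.40. Of the ligands, Tgfb2 had a log2 ratio of 0.56, which was 0.46 without the 2 mice and 0.34 without those and M17_1. Inhba, counted below 1 CPM in every mouse, had 0.82, 0.17 and 0.06 in the same order. The partners of the drivers did not pass the test. Tgfbr1, another receptor, had a log2 ratio of -0.09, Smad3, another receptor-regulated Smad, had 0.23, and the inhibitory Smad7 had 0.28. Of the target list, Tagln, Col1a1, Col1a2 and Fn1 are also abundant in smooth muscle or fibroblasts, and Tagln is also in the smooth muscle marker list.

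For Fbxw7, 0 of 10 genes of the SCF ligase and its cofactors and 2 of 12 substrates had an unadjusted p under 0.05. The core subunits had log2 ratios of 0.0022 for Skp1a and 0.0098 for Cul1. Mcl1, an antiapoptotic substrate, was counted at 335 to 704 CPM (median 406) in APC Min/+ and at 236 to 457 CPM (median 331) in the WT group, and its log2 ratio of 0.44 was 0.17 without M10_2 and M13_1. Mycn had 0.91 and 0.16. Myc and Ccne1 (cyclin E1) had log2 ratios of 0.26 and -0.03. Fbxw7 acts on the proteins, which these libraries do not measure.

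A further list of 16 genes recurrently mutated in colorectal cancer held 1 gene at an unadjusted p under 0.05, the Wnt effector Tcf7l2. It was counted at 50.2 to 106 CPM (median 73.3) in APC Min/+ and at 45.6 to 71.0 CPM (median 57.3) in WT mice. Its log2 ratio was 0.45 and 0.17 without M10_2 and M13_1, which held 102 and 106 CPM.

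**Figure D5:**
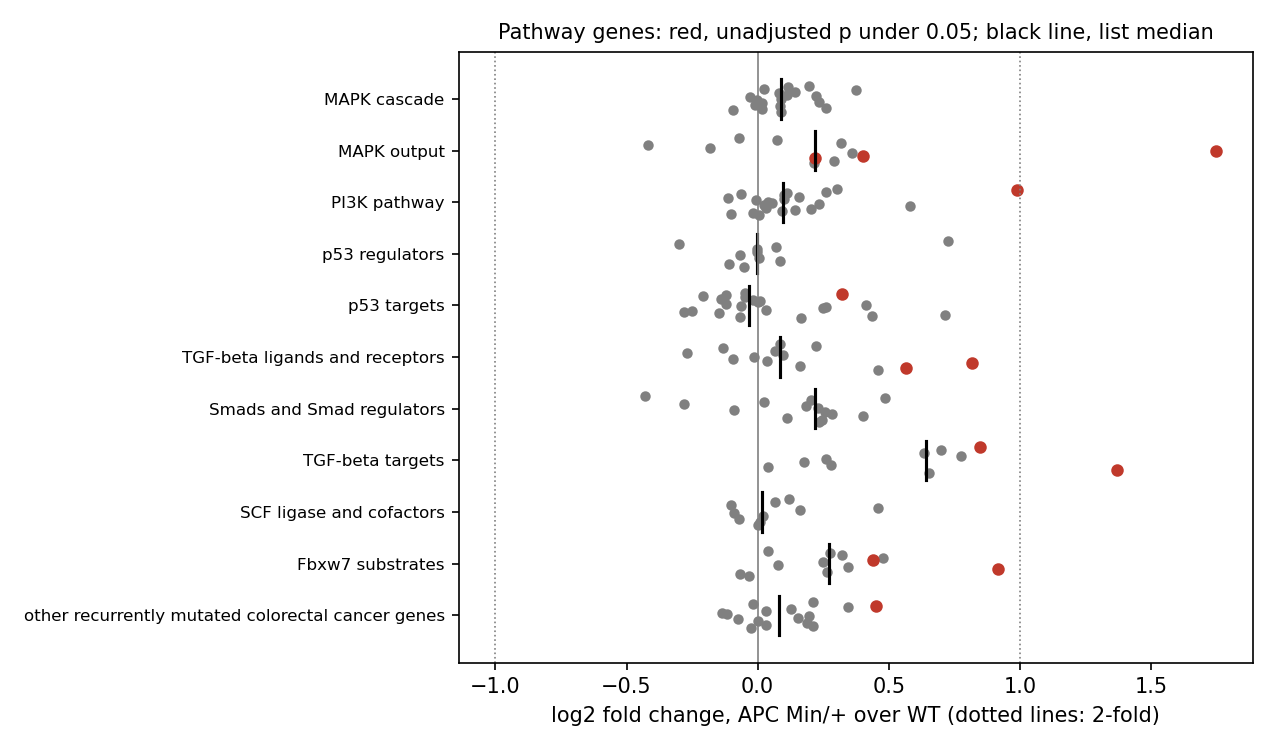
Log2 fold change, APC Min/+ over WT, of the 159 tested pathway genes in 11 lists (points; red, unadjusted p under 0.05; black line, list median; dotted lines, 2-fold). The TGF-beta target list has the highest median, 0.64, and the red points are all to the right of 0.

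The genes whose log2 CPM ran most like a driver were searched among 11686 genes of at least 5 CPM on average, by Pearson's r over the 12 mice. For Smad4 these included Adamts15 and Bmp2 (r = 0.98 for each), and for Tgfbr2 they were Rtn4rl1, Dennd2a and Zfp217 (r = 0.99, 0.99 and 0.98). For Smad2 they were Hoxd13, Rffl and Ak3 (r = 0.97, 0.95 and 0.95), the first of which is one of the posterior Hox markers that set M10_2 and M13_1 apart. Fbxw7 ran most like Dcaf7 and Mta2 (r = 0.98 for each) and Trp53 most like Armc5, Eif4g3 and Cluh (r = 0.96 for each). For Nras they were Ptbp3, Tada1 and N4bp2l2 (r = 0.95, 0.94 and 0.94), for Braf Fam91a1, Ccnt1 and Ubr1 (r = 0.92, 0.91 and 0.89), and for Pik3ca Tarsl2, Zfp623 and Hace1 (r = 0.91 for each). Such values are the top of a search over many genes that share the same 12 libraries and their composition, and are given as a description.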

How the data were processed

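RNA-Seq was run on 12 mice. Per the labels and the methods, the authors aligned paired reads with STAR 2.3.0 to GRCm38.p2, counted them on genes with featureCounts (version and strand setting not given in the sources used here) and deposited 1 table of raw counts with gene lengths per mouse. Symbols were taken from GENCODE M21 for 37607 of 38924 genes. Testing covered the 20311 genes that had 10 or more counts in 3 or more mice and was done in R 4.3.3 with edgeR 4.0.16 (TMM factors 0.906 to 1.10, quasi-likelihood test, genotype only), calling an FDR under 0.05 with a fold change of at least 2. DESeq2 1.42.0 and limma 3.58.1 served as alternatives. Each standard error is the log2 fold change divided by the square root of its F value. RPKM used the lengths in the tables and TMM-scaled totals. Correlations used log2 CPM and 100000 permutations, two-sided. The limit of 3 counts corresponds to 0.0152 to 0.0596 CPM. No libraries agreed within sampling noise.

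The drivers and the gene lists were chosen with earlier results of these data known. Named pathway genes were fixed partners and, per list, up to 3 genes with an unadjusted p under 0.05, and the 3 genes most alike were taken for each driver. A few genes that these rules select are not reported here. Replicates are separate mice. The mice came in 3 shipments, and the labels do not say which mouse came in which, so values within shipments could not be computed and the part of shipment was not tested. Promoters are RefSeq windows on GRCm38.p6.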

Additional observations from a re-analysis of the deposited data

Results flagged for a closer look

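In WT mouse M17_1, Tgfbr2 was counted at 42.6 CPM, far below the next WT mouse at 91.7 CPM, and the gap made up 0.634 of the range of the 6 WT mice in Dixon's test, which is above its 95% critical value. Of 16 sets of values tested in this way (8 genes in 2 genotypes), 1 passed, and chance flags about 1 in 20. Smad4 in the same mouse, at 39.2 CPM, fell just short of it.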

How the results depend on the processing

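The 8 drivers were not called under any of the 22 alternatives to edgeR's quasi-likelihood test on 12 mice. The number of genes called was 27 with DESeq2, 10 with edgeR's exact test and 15 with the likelihood ratio test, and 0 in the other alternatives. Genes with an unadjusted p under 0.05 numbered 625 under a filter of 100 or more counts in 6 or more mice, 317 without M10_2 and M13_1, and 246 without those 2 and M17_1 (the last set was chosen after seeing the data), and 524 to 1828 when 1 mouse was left out, the lowest without M10_2 and the highest without M2_A. Drivers at an unadjusted p under 0.05 numbered 2 with total counts in place of TMM (Smad4 and Smad2), 1 with no filter, DESeq2, the exact test or the likelihood ratio test (Smad4), and 0 to 2 when 1 mouse was left out. Leaving out 1 mouse gave log2 fold changes of 0.41 to 0.68 for Smad4, 0.14 to 0.37 for Tgfbr2, 0.12 to 0.27 for Smad2, 0.03 to 0.18 for Fbxw7, 0.04 to 0.17 for Trp53, 0.02 to 0.13 for Pik3ca, -0.14 to -0.05 for Braf and -0.11 to -0.0089 for Nras, so that for every driver but Smad4 a single mouse could move the value by over 1.5 times. The sign of the log2 fold change held in all 22 alternatives for 7 drivers, and that of Pik3ca turned to -0.023 without M10_2 and M13_1, and to -0.023 without those and M17_1. The alternatives share most or all of their mice, so a held sign is no independent evidence of a direction. Without M10_2, M13_1 and M17_1 the held values were as small as 0.00084 for Fbxw7 and -0.017 for Nras. With the longest transcript as length, Nras took place 2, Tgfbr2 3, Trp53 4, Pik3ca 5, Braf 6 and Smad2 7, while TPM and totals without TMM left the order as it was; the change follows from the length itself.

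Correlations with marker levels were the least stable. Without the 2 farthest mice, r turned for smooth muscle to -0.069 (Trp53) and -0.32 (Fbxw7), and for epithelium to -0.41 (Braf), 0.80 (Smad2) and 0.85 (Smad4), and r of Fbxw7 with epithelium passed at 0.80. Without M10_2, M13_1 and M17_1, r with smooth muscle turned to -0.047 (Pik3ca), -0.022 (Trp53), -0.24 (Smad2), -0.065 (Smad4), -0.087 (Tgfbr2) and -0.18 (Fbxw7), and with epithelium to -0.37 (Braf), 0.56 (Smad2), 0.58 (Smad4) and -0.020 (Tgfbr2). Apart from the mice left out, the cause was not tested. No paired analysis was possible because a single number, 18_2, recurs in both genotypes (M18_2a in WT, M18_2b in APC Min/+), and the labels do not say what it stands for.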
